A study of Mus musculus with 16 samples.

Results

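The genes described here are Scd1 and 9 further genes that make, lengthen or desaturate fatty acids or switch that programme on: Acly, Acaca, Fasn, Elovl6, Scd2, Fads1, Fads2, Elovl5 and Srebf1. They were taken by name, with every non-control probe to which the array files give any of these names. This gave 17 probes for 10 of the 27703 gene names on the array. A gene was represented by its brightest probe, and for all 10 genes that probe was well above background in the mouse's own colour on all 16 arrays, so all 10 were among the 21248 genes tested. Of the 17 probes, 16 passed the same filter, and the failing probe, 1 of 5 for Acaca (A_52_P132591), was well above background on 2 arrays.

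Lung RNA came from 16 female mice of the inbred A/J strain, known for its high rate of lung tumours. Each of 4 groups held 4 mice, which the labels call biological replicates. NNK+SECY mice received 1 intraperitoneal injection of NNK, a tobacco-specific nitrosamine (0.2 mL of saline at 10 uM), and were fed selenocystine, a selenium-containing amino acid, at 15 ppm for 10 days starting 3 days after the injection. NNK mice received the injection without selenocystine, SECY mice received selenocystine for 10 days without NNK, and Untreated mice received neither. The AIN-76 basal diet, with 0.35 ppm selenium, was common to all 4 groups, and injected mice were killed 13 days after NNK. Each array compared a mouse's whole-lung RNA, labelled with Cy5 (red), with a Cy3-labelled (green) pool of equal parts from the Untreated mice, with the same dye orientation throughout. The level of a gene is therefore given as log2 of Cy5 over Cy3, where 0 is equal normalized signal in both colours. The Untreated mean was not 0 for every gene (-0.17 for Scd2 and 0.15 for Elovl5), so a sign alone does not place a lung above or below Untreated. In whole lung, a change in the number of expressing cells and a change in RNA per cell cannot be told apart.

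In mammalian cells Acly makes acetyl-CoA from citrate, Acaca turns it into malonyl-CoA, Fasn builds palmitate from these units and Elovl6 lengthens palmitate to stearate. Scd1 and Scd2 put the first double bond into saturated chains and so make oleate and palmitoleate, while Fads2, Elovl5 and Fads1 act in turn on the polyunsaturated series. Srebf1 encodes SREBP-1, a transcription factor that drives these genes, and the sterol receptor LXR raises both Srebf1 and Scd1. In lung, alveolar type 2 cells use the pathway to make surfactant phospholipid, and macrophages and fat cells use it as well.

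The file headers gave 8 slide barcodes, each on 2 arrays, and a slide here means such a barcode. Whether arrays with the same barcode lay on the same glass is not known. Slides 1 to 4 each named an Untreated and an NNK array, and slides 5 to 8 a SECY and an NNK+SECY array. The arrays of NNK-treated mice were scanned on a different day from the rest. Slide set and diet therefore cannot be told apart, nor can scan day and NNK, and both apply to NNK+SECY against Untreated. Between 66.3% and 79.3% of spots were well above background in Cy5. All 37 of the listed markers of alveolar type 2, alveolar type 1, club, ciliated and endothelial cells were well above background on all 16 arrays. SECY 3 stood apart, with the lowest array weight in limma (0.202, against up to 1.89) and the lowest value of 21.9% of all genes.

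Scd1, the main stearoyl-CoA desaturase of most mouse tissues, was higher in NNK+SECY lungs than in NNK or Untreated lungs, but the call rested on 2 spots being left out. Its log2 ratio (probe A_52_P682382) was 0.58, 0.98 and 0.65 on NNK+SECY arrays 1, 3 and 4, and the spot on NNK+SECY array 2 was flagged by the scanner software and left out. It was -0.53, -0.03, -0.22 and 0.38 in NNK lungs, and -0.07, -0.22 and -0.11 in SECY lungs, where array 4 was flagged. In Untreated lungs it was 0.10, -0.20, -0.05 and -0.20. The 3 measured NNK+SECY values lay above every measured value of the other groups, of which NNK 4 and Untreated 1 were the 2 above 0.

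In limma, Scd1 rose in NNK+SECY over Untreated by 0.82 ± 0.16 (log2 fold change ± SE, adjusted p = 0.0182), which is 1.77-fold with a 95% interval of 1.39 to 2.25. Over NNK it rose by 0.84 ± 0.16 (adjusted p = 0.0115), or 1.79-fold with an interval of 1.404 to 2.27. The group means were 0.74 ± 0.21 in NNK+SECY (SD, n = 3), -0.10 ± 0.38 in NNK (n = 4), -0.13 ± 0.08 in SECY (n = 3) and -0.09 ± 0.14 in Untreated (n = 4). Scd1 was the only member called in either comparison, 1 of 10 in each. Of all genes tested, 1.6% were called in NNK+SECY against Untreated and 1.75% against NNK, and 0.537% and 0.306% were called as higher. Tested probe by probe, the Scd1 probe was the 1 called of the members' 16 in both, beside 1.44% and 1.56% of all probes. In the single-channel signals, Scd1's Cy5 signal differed by 0.93 from Untreated and by 0.99 from NNK, against 0.11 and 0.15 for its Cy3 signal, which held the same mix on every array. These signals also left out the flagged spot on NNK+SECY array 2, although its Cy5 signal was not flagged, so they depend on the same exclusion.

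Against SECY, Scd1 was 0.87 ± 0.17 higher in NNK+SECY lungs and the groups did not overlap, but the adjusted p of 0.372 missed the threshold in a comparison where 0.00942% of genes were called and 3.01% did not overlap. Where both arrays of a slide barcode had a measured spot, NNK+SECY was above the SECY array by 0.66 on slide 5 and by 1.09 on slide 7. On slides 6 and 8, which each hold a flagged spot, the differences were 0.07 and 0.08 with that spot kept. The NNK effect under selenocystine exceeded that on basal diet by 0.88 ± 0.23 (interaction, adjusted p = 0.93), so a difference between the 2 NNK effects was not shown by limma, which called 0.00471% of genes. Neither NNK alone (-0.01 ± 0.15 against Untreated, adjusted p = 1.00) nor selenocystine alone (-0.05 ± 0.16, adjusted p = 0.976) gave a call, in comparisons where 0.32% and 0.278% of genes were called. Within slides, NNK minus Untreated was -0.63, 0.17, -0.18 and 0.59, with both signs present.

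**Figure D1:**
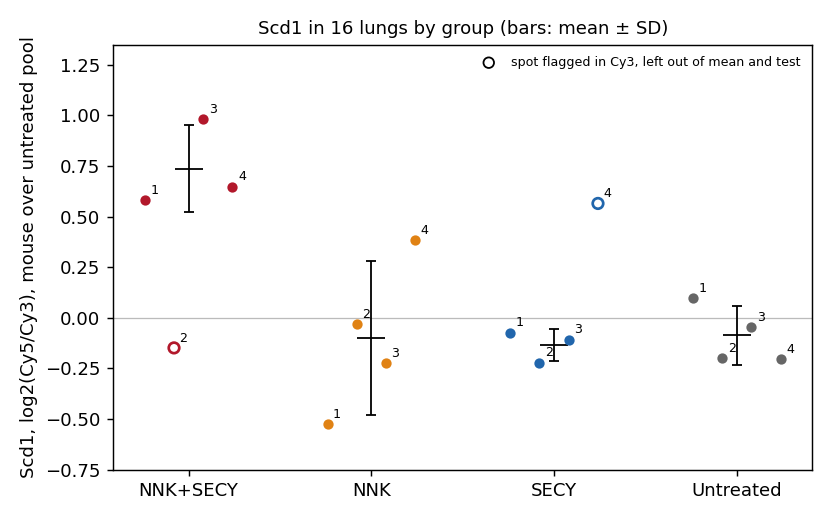
Log2 ratio of Scd1 (Cy5 over Cy3, vertical axis) on each array by group, with filled points for measured spots, open points for the 2 flagged spots, and bars for the mean of the measured spots with its SD. The measured NNK+SECY points, 0.58 to 0.98, lie above all measured points of the other groups, and the flagged NNK+SECY 2 point, -0.15, lies among them.

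The call depended on the 2 flagged spots being left out. Of the 2, only NNK+SECY 2 enters the means compared with Untreated and NNK, and no fit kept 1 without the other. The software marked both as non-uniform in Cy3, where the pixel SD was 370 of a mean of 1867 on NNK+SECY 2 (19.8%) and 422 of 2032 on SECY 4 (20.8%), against 4.22% to 15.98% on the other 14 arrays. Their Cy5 signals were not flagged, and the raw Cy5 mean was 2256 on NNK+SECY 2, against 5128, 5182 and 4068 on NNK+SECY 1, 3 and 4. With the flagged spots kept, the log2 ratio was -0.15 on NNK+SECY 2 and 0.57 on SECY 4, so that each lay with the other group's arrays. Other genes bear on the labels of these arrays: 41 genes called in NNK against Untreated and measured on all 16 arrays averaged 0.38 on NNK+SECY 2, within the 0.27 to 0.45 of the other NNK+SECY arrays, and 0.07 on SECY 4, below the 0.18 to 0.25 of the other SECY arrays. Since NNK and scan day cannot be told apart, this does not settle which RNA lay on which array, and an exchange of the 2 samples was not tested. The Scd1 means were then 0.52 ± 0.48 in NNK+SECY, -0.10 ± 0.38 in NNK, 0.04 ± 0.35 in SECY and -0.09 ± 0.14 in Untreated (SD, n = 4 each), and NNK+SECY overlapped every other group. The rise became 0.60 ± 0.22 over Untreated (adjusted p = 0.325) and 0.61 ± 0.22 over NNK (adjusted p = 0.29), and no longer passed.

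Single arrays decided the call as well. With 1 array left out at a time, the rise of Scd1 over Untreated ranged from 0.70 to 0.90 and was called in 2 of the 7 fits that left out a measured Scd1 spot, and it was lost without Untreated 2, 3 or 4 or without NNK+SECY 3 or 4 (adjusted p up to 0.0860). Over NNK it ranged from 0.69 to 1.00 and was called in 6 of 7 such fits, and it was lost without NNK+SECY 3 (adjusted p = 0.073). The direction was the same in every fit run for these 2 comparisons.

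**Figure D2:**
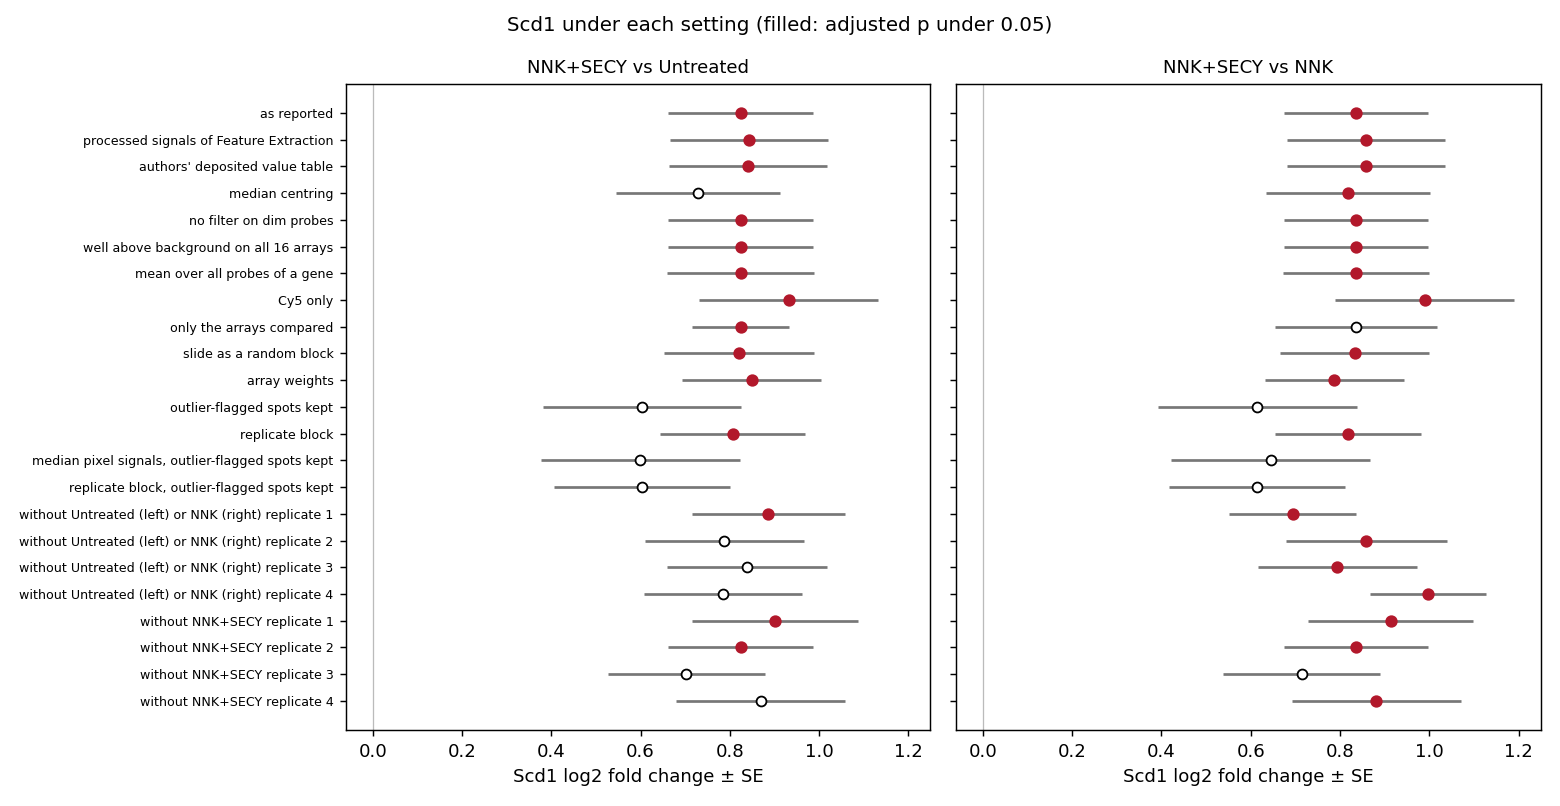
Log2 fold change of Scd1 (horizontal axis) in NNK+SECY against Untreated (left) and against NNK (right) under each processing alternative, with bars for the SE, filled points where Scd1 was called at an adjusted p under 0.05 and open points where it was not. All values lie above 0, between 0.60 and 1.00, and each setting that keeps the flagged spots has an open point.

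Markers of other tissues varied over the same arrays, and their part in the Scd1 values was not tested. Of 14 fat cell markers, all tested, none was called as higher, and Slc7a10, a transporter of fat cells, fell by 0.43 in NNK+SECY against Untreated (adjusted p = 0.0132) and by 0.50 against NNK (adjusted p = 0.00258). Of the 14, 6 were above 0 against Untreated (median -0.02) and 10 against NNK (median 0.05). The mean log2 ratio of the fat cell list was 0.37, -0.15, -0.18 and -0.52 on NNK+SECY arrays 1 to 4, -0.41 to 0.00 in NNK, -0.27 to 0.38 in SECY and -0.33 to 0.17 in Untreated. Among NNK+SECY arrays, array 1 was highest in fat markers and array 3 in Scd1. Summed Cy5 signal of the list ran from 4810 to 15008 in NNK+SECY, 5643 to 7807 in NNK, 6541 to 11667 in SECY and 7157 to 9349 in Untreated. Adipoq, the hormone that defines fat cells, was well above background on all 16 arrays, Lep on 12 and Adrb3 on 6. For skeletal muscle, 11 of 13 markers were tested and none was called, 10 were above 0 in NNK+SECY against Untreated (median 0.32), and the list's mean log2 ratio was 0.58, -0.15, 0.76 and -0.38 on the NNK+SECY arrays, against -0.27 to -0.16 in NNK, -0.36 to 0.27 in SECY and -0.38 to 0.38 in Untreated. Its summed Cy5 signal ran from 1307 to 4423 in NNK+SECY, 1391 to 1684 in NNK, 1404 to 2275 in SECY and 1531 to 2961 in Untreated. For alveolar macrophages, 10 of 11 markers were on the array and tested, none was called, and the summed signal ran from 12665 to 19662 in NNK+SECY, 11622 to 12947 in NNK, 9545 to 16636 in SECY and 13216 to 15180 in Untreated. The highest sum was on NNK+SECY 3, whose mean macrophage log2 ratio of 0.18 was also the highest of the 16 arrays, against -0.27 to -0.07 on the other NNK+SECY arrays.

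**Figure D3:**
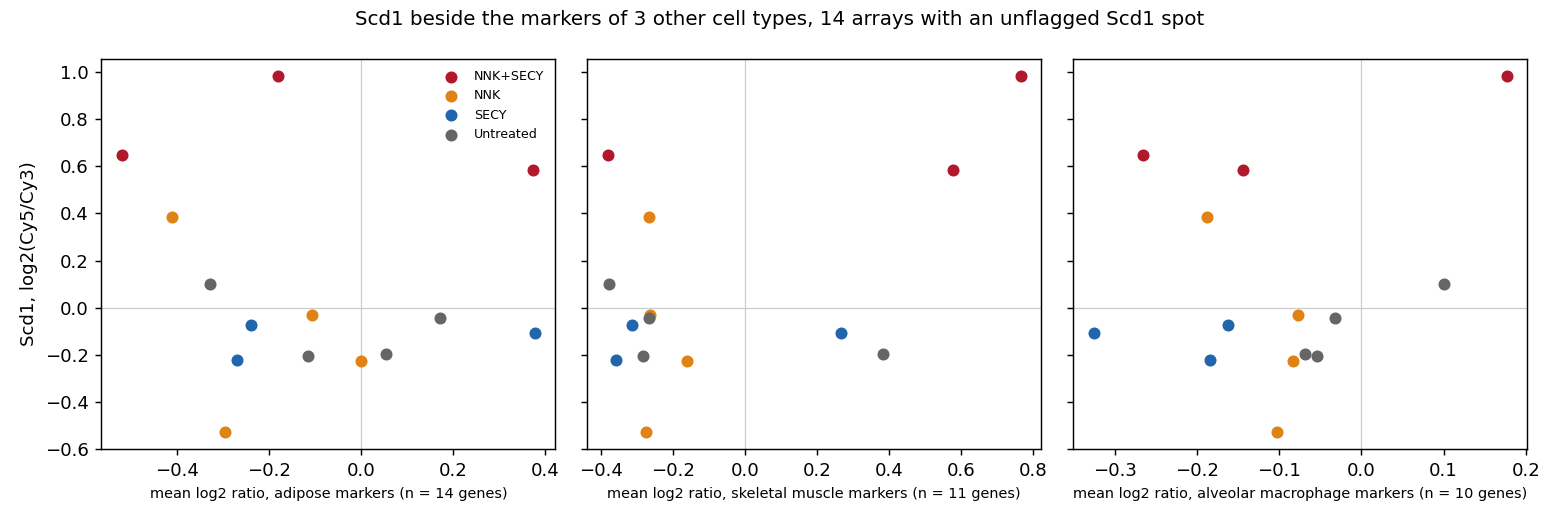
Log2 ratio of Scd1 (vertical axis) against the mean log2 ratio of the fat cell, skeletal muscle and alveolar macrophage marker lists (horizontal axes) on the 14 arrays with a measured Scd1 spot, coloured by group. NNK+SECY 3, highest in Scd1 at 0.98, is also highest in skeletal muscle markers at 0.76 and in macrophage markers at 0.18, and is at -0.18 in fat markers.

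The enzymes that supply and build the chain did not pass the test in any comparison. Acly had log2 ratios of 0.06, -0.06, 0.37 and 0.06 in NNK+SECY lungs, against -0.17, -0.14, -0.04 and 0.07 in NNK and -0.03, 0.05, 0.08 and -0.01 in Untreated. In SECY it was -0.11, -0.39, 0.10 and 0.08. The groups overlapped, and NNK+SECY differed from Untreated by 0.08 ± 0.10 (adjusted p = 0.92) and from NNK by 0.17 ± 0.10 (adjusted p = 0.628). Acaca, the cytosolic carboxylase that sets the pace of synthesis, was at 0.30, -0.14, 0.56 and 0.02 in NNK+SECY, -0.10, 0.12, 0.05 and 0.11 in NNK, -0.10, -0.23, 0.40 and 0.04 in SECY, and -0.15, -0.03, 0.28 and -0.05 in Untreated. The groups overlapped, and NNK+SECY differed from Untreated by 0.17 ± 0.14. Its probes disagreed in sign, since a second probe (A_52_P23177) had -0.08, -0.19, -0.30 and -0.34 in NNK+SECY and differed from Untreated by -0.14 ± 0.09, and none of the 4 Acaca probes tested was called. Fasn, which carries out the whole cycle of chain growth, was at 0.13, -0.01, 0.39 and -0.03 in NNK+SECY, -0.26, 0.00, 0.06 and 0.02 in NNK, -0.25, -0.49, 0.38 and -0.19 in SECY, and -0.09, 0.05, 0.37 and 0.13 in Untreated. Every group had its highest Fasn value on array 3, at 0.06 in NNK and at 0.37 to 0.39 in NNK+SECY, SECY and Untreated. NNK+SECY differed from Untreated by 0.01 ± 0.15, an interval of 0.806-fold to 1.25-fold.

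The promoter window of Fasn is shown because this gene is the classic target of SREBP-1 and NF-Y. The sequence is RefSeq's for assembly GRCm38.p6, 250 bases before to 50 after the start, at chr11:120824498-120824797 on the minus strand, written 5' to 3' with matches to CCAAT on either strand in capitals.
Fasn: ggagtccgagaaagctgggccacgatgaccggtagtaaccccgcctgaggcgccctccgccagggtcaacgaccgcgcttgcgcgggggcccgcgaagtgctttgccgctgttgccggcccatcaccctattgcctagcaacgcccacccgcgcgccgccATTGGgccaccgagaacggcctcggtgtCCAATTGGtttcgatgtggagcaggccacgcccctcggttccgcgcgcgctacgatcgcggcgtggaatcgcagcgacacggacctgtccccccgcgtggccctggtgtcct
CCAAT occurred at positions -90, -62 and -59 from the start, the last 2 overlapping on opposite strands. Of the 10 members 7 had windows, 9 in all with several for Srebf1, and Scd1, Scd2 and Fads1 had none. Of these 9 windows 5 held CCAAT, against 37.4% of all 32851 windows. The sterol regulatory element TCACNCCAC was in 0 of 9 windows, against 1.24% of all, and the E-box CACGTG was in 1 of 9, that of Elovl5, against 7.15% of all. Such matches describe the letters in these windows only.

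Elovl6, which lengthens palmitate before desaturation, spread more within the NNK+SECY group than any other member. It was at -0.41, -0.51, 0.77 and -0.77 in NNK+SECY lungs, -0.01, 0.29, 0.08 and 0.30 in NNK, -0.08, -0.59, -0.49 and 0.24 in SECY, and 0.18, -0.21, 0.17 and -0.24 in Untreated. NNK+SECY 3 was above every NNK value, and the other 3 NNK+SECY arrays were below every NNK value. The differences were -0.40 ± 0.26 from NNK (adjusted p = 0.669) and -0.21 ± 0.26 from Untreated (adjusted p = 0.921). Without NNK+SECY 3, Elovl6 fell by 0.73 against NNK and passed the test (adjusted p = 0.0457). This was the 1 pass in 22 alternatives, and without NNK+SECY 4 the difference was -0.22 (adjusted p = 0.919).

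Scd2, the desaturase isoform prominent in brain and in developing tissue, was not called in any comparison. It was at -0.13, -0.15, -0.06 and 0.05 in NNK+SECY, -0.24, -0.12, -0.12 and 0.06 in NNK, -0.07, -0.15, -0.35 and -0.10 in SECY, and -0.17, -0.17, -0.10 and -0.25 in Untreated. NNK+SECY differed from Untreated by 0.10 ± 0.07, an interval of 0.963-fold to 1.19-fold that lies below the Scd1 interval. A test of the difference between the 2 genes was not run.

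Fads1, the delta-5 desaturase, had lower means in both selenocystine groups without passing the test. It was at -0.32, -0.33, -0.11 and -0.24 in NNK+SECY lungs, against 0.08, 0.04, -0.10 and 0.05 in NNK, and at -0.09, -0.57, -0.30 and -0.33 in SECY, against -0.16, -0.04, -0.03 and -0.10 in Untreated. NNK+SECY did not overlap NNK, although the nearest values were -0.11 and -0.10, while SECY overlapped Untreated. The differences were -0.27 ± 0.08 from NNK (adjusted p = 0.164) and -0.24 ± 0.08 for SECY against Untreated (adjusted p = 0.337). Scd1 and Fads1 were the 2 members of 10 without overlap between NNK+SECY and NNK, against 8.76% of all genes, and Scd1 was the 1 member between NNK+SECY and Untreated, against 6.87%.

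The other polyunsaturated enzymes and the regulator gave no call. Fads2, the delta-6 desaturase, was at -0.02, 0.03, 0.41 and 0.22 in NNK+SECY, 0.04, 0.18, 0.14 and 0.01 in NNK, 0.15, 0.04, 0.19 and 0.03 in SECY, and -0.10, 0.05, 0.19 and -0.03 in Untreated, with a NNK+SECY against Untreated difference of 0.13 ± 0.09. Elovl5, the elongase that acts between Fads2 and Fads1, was at 0.06, 0.15, 0.50 and 0.25 in NNK+SECY, 0.09, 0.10, 0.35 and 0.39 in NNK, 0.17, 0.04, -0.15 and 0.20 in SECY, and 0.15, 0.15, 0.09 and 0.21 in Untreated, with a NNK+SECY against Untreated difference of 0.09 ± 0.10. Srebf1 was at 0.06, -0.09, 0.30 and -0.17 in NNK+SECY, 0.01, -0.13, -0.09 and 0.09 in NNK, -0.02, -0.33, 0.08 and -0.22 in SECY, and -0.19, -0.16, 0.09 and -0.11 in Untreated, with a NNK+SECY against Untreated difference of 0.12 ± 0.10. In all 3 genes the groups overlapped and NNK+SECY 3 held the highest value of its group. Read from the Cy5 signal alone, without the ratio to the mix, Scd2 (0.32, adjusted p = 0.0344) and Fads2 (0.36, adjusted p = 0.011) were called beside Scd1 in NNK+SECY against Untreated, and so was Fads2 against NNK (0.40, adjusted p = 0.0111). From Cy5 alone 15.5% and 7.69% of all genes were called in these comparisons. The Scd1 values from Cy5 alone left out the same flagged spots. The Cy3 signal of the constant mix was also higher, by 0.22 for both genes against Untreated and by 0.33 for Fads2 against NNK.

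**Figure D4:**
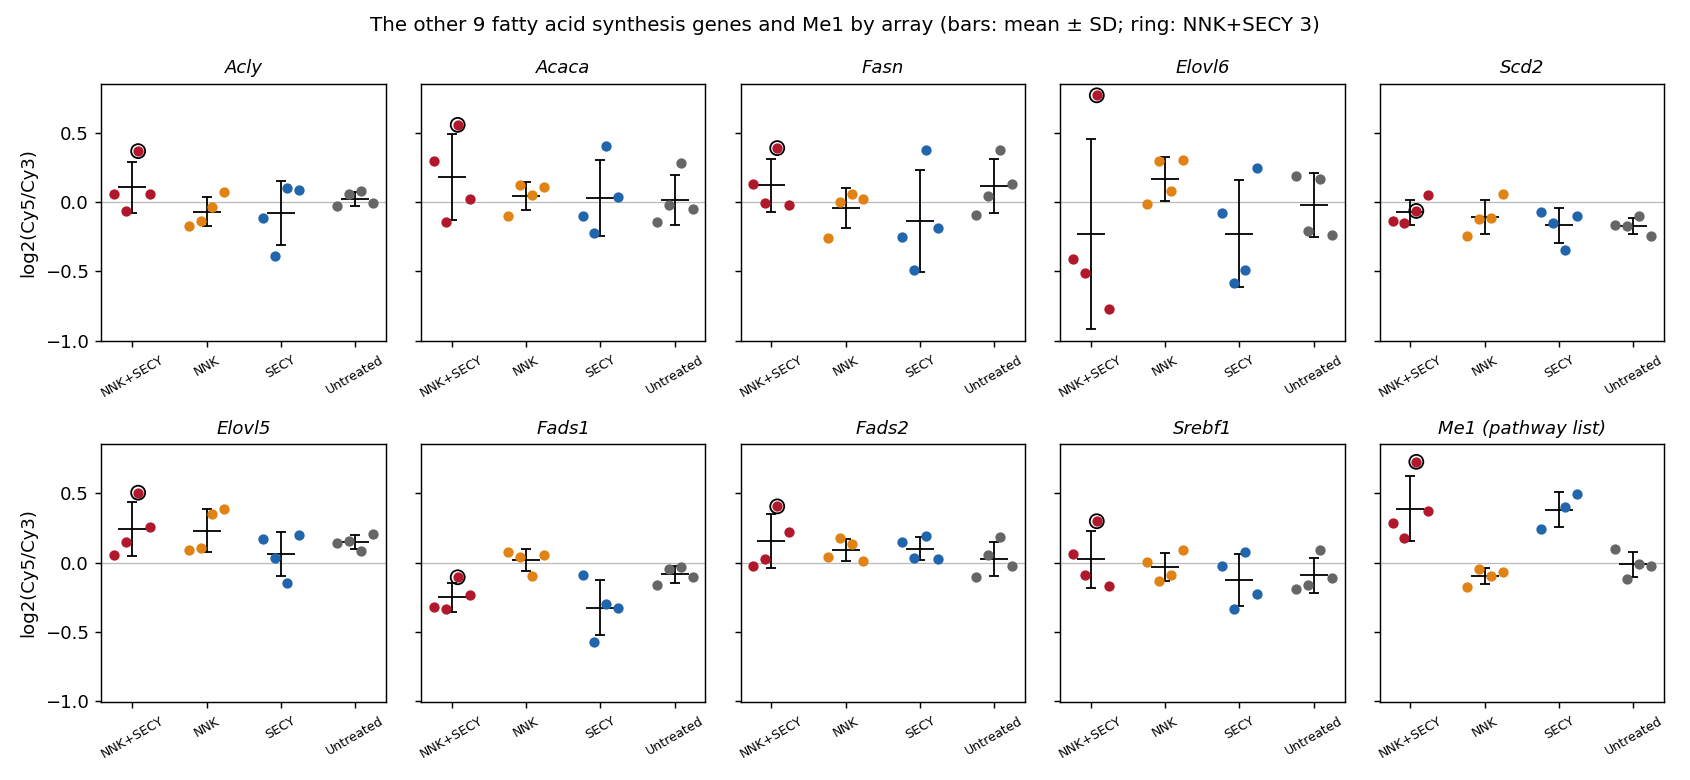
Log2 ratio (Cy5 over Cy3, vertical axes) of the other 9 members and of Me1 on each array by group, with a ring round NNK+SECY 3. The ringed point is the highest of all 16 arrays for Acly, Acaca, Fasn, Elovl6, Elovl5, Fads2 and Srebf1, and lies within the others for Scd2 and Fads1.

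Leaving Scd1 aside, the 95% intervals of the 9 other members in NNK+SECY against Untreated lay between -0.75 and 0.47, or between -0.34 and 0.47 without Elovl6. Of the 10 members, 8 had fold changes above 0, with a median of 0.09, beside 50.2% of all genes and a median over all genes of 0.00. In SECY against Untreated 3 of 10 were above 0, with a median of -0.07, beside 48.1% of all genes. These comparisons share the Untreated arrays.

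**Figure D5:**
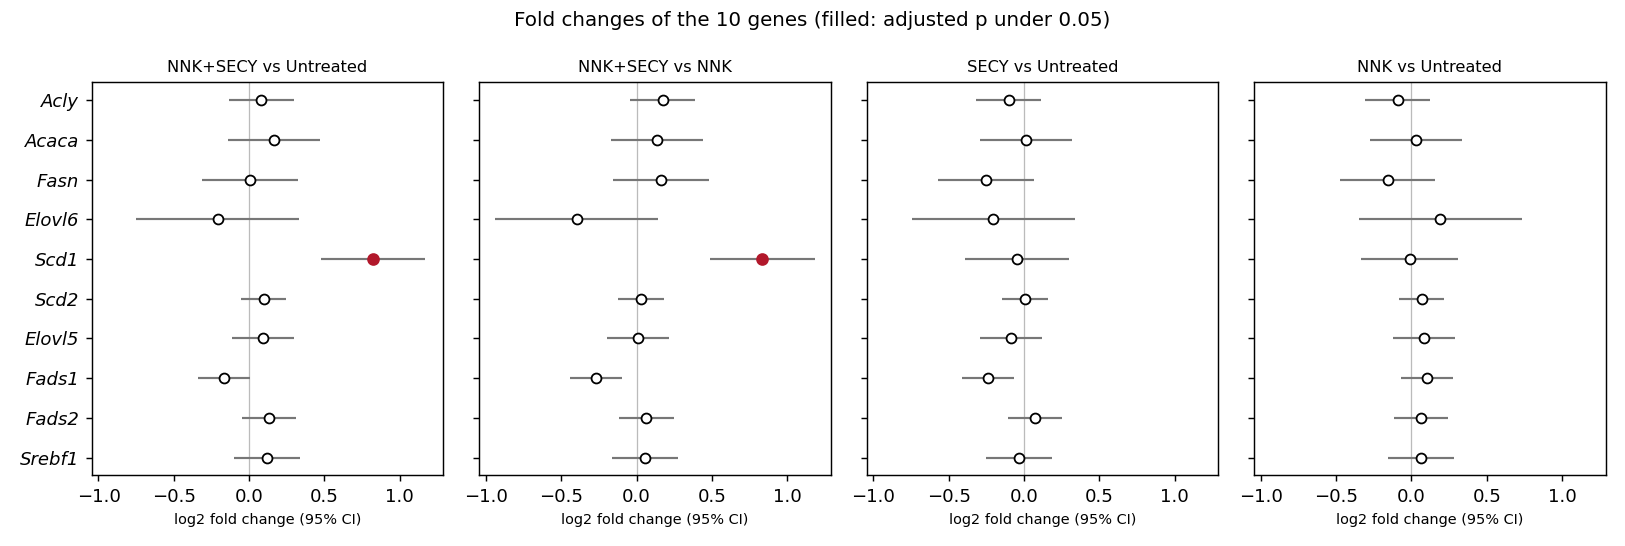
Log2 fold change of each member (points) with its 95% interval from the limma model (bars) in 4 comparisons, horizontal axes in log2 units. Scd1 stands at 0.82 and 0.84 in NNK+SECY against Untreated and against NNK, and the intervals of the other members in NNK+SECY against Untreated reach at most 0.47.

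The members' values met on a few arrays. NNK+SECY 3 held the highest log2 ratio of 8 of the 10 members over all 16 arrays (all but Scd2 and Fads1), while it held the highest value of 6.43% of all genes tested. The same array was the highest of 16 in the mean log2 ratio of the skeletal muscle (0.76), alveolar macrophage (0.18) and LXR target (0.25) lists. It was also the highest in the list of partner genes of fatty acid synthesis (0.14). The part of these lists in the members' values was not tested. SECY 2 held the lowest value of 5 members (Acly, Acaca, Fasn, Fads1 and Srebf1) and of 8.3% of all genes. Both counts were made after the values were seen and have no test. Over the 14 arrays with a measured Scd1 spot, Pearson's correlation with Scd1 was 0.68 for Acly, 0.61 for Scd2, 0.59 for Acaca, 0.52 for Elovl5, 0.48 for Srebf1, 0.42 for Fads2, 0.41 for Fasn, 0.21 for Elovl6 and -0.12 for Fads1. After the group means were taken out it was 0.52 for Acly, 0.56 for Scd2, 0.36 for Acaca, 0.51 for Elovl5, 0.36 for Srebf1, 0.20 for Fads2, 0.32 for Fasn, 0.59 for Elovl6 and 0.23 for Fads1. These arrays share the pooled Cy3 mix and, in pairs, a slide barcode.

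Me1, the cytosolic malic enzyme that supplies NADPH for chain building, was the only further pathway gene to pass. Its main probe (A_51_P266861) read 0.28, 0.18, 0.73 and 0.37 in NNK+SECY lungs, -0.18, -0.05, -0.10 and -0.06 in NNK, 0.25, 0.40 and 0.50 in SECY, where array 2 was flagged, and 0.10, -0.12, -0.01 and -0.02 in Untreated. Every value of the 2 selenocystine groups lay above every value of the other groups. Me1 rose in NNK+SECY by 0.49 ± 0.09 over NNK (1.401-fold, adjusted p = 0.00992) and by 0.40 ± 0.09 over Untreated (1.32-fold, adjusted p = 0.0441), and SECY was 0.39 ± 0.10 above Untreated (adjusted p = 0.14). Between NNK+SECY and SECY the difference was 0.01 ± 0.10, an interval of 0.866-fold to 1.17-fold. The second probe (A_51_P186601) gave 0.49 over NNK (adjusted p = 0.0216), 0.42 over Untreated (adjusted p = 0.0646) and 0.30 for SECY over Untreated (adjusted p = 0.377). The call over NNK held in 22 of 22 alternatives and that over Untreated in 9 of 22, and it was lost in 7 of the 8 fits that left out an array of those groups, all but that without NNK+SECY 2 (adjusted p up to 0.137).

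The Me1 promoter window is shown because the gene is also known as a target of NRF2, the factor that binds antioxidant response elements. It lies at chr9:86695865-86696164 on the minus strand of GRCm38.p6, again from RefSeq and 5' to 3', with the match to the element TGACNNNGC (either strand) in capitals.
Me1: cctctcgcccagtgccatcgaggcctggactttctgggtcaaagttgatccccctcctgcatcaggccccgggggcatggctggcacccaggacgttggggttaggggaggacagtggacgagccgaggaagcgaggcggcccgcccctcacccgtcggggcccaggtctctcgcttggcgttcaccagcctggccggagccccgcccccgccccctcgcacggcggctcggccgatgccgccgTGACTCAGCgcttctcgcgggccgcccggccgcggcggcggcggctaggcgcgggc
The match lies at position -6 from the start. A second Me1 window, at chr9:86687228-86687527, holds no match to this element. The same letters were in 0 of the 9 member windows, which do not include Scd1, and in 12.4% of all windows.

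Of 22 partner genes of fatty acid synthesis, 20 were tested, and Me1 was the 1 called in NNK+SECY against Untreated and against NNK, with 0 lower. The list's median log2 fold change was 0.02 in both, against 0.00 for all genes. Elovl1, an elongase of very long chains, was at -0.33 ± 0.09 (adjusted p = 0.0821), and Tecr, the last reductase of the elongation cycle, was at 0.11 ± 0.06 (adjusted p = 0.696) in NNK+SECY against Untreated. All 15 regulators of the pathway were tested and none was called in any comparison. Nearest to a call in NNK+SECY against Untreated were Mbtps2, a protease that releases SREBP, at 0.09 ± 0.05, Scap, the escort of SREBP, at -0.16 ± 0.10, and Insig2, which holds Scap back, at 0.16 ± 0.13. Of the 15 regulators, 0 had an unadjusted p under 0.05 in that comparison, 0 in NNK+SECY against NNK, 3 in SECY against Untreated and 1 in NNK against Untreated. The shares of all genes were 9.23%, 9.9%, 8.11% and 5.04% in the same order. LXR targets outside the members, 6 of 6 tested, gave no call, with Abcg1, a cholesterol exporter, at -0.23 ± 0.06 (adjusted p = 0.0535), Abca1, another exporter, at 0.22 ± 0.09, and Smpdl3a, a phosphodiesterase, at -0.08 ± 0.10. Of these 6 genes, 2 had an unadjusted p under 0.05 in NNK+SECY against Untreated, with opposite signs, beside 9.23% of all genes.

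The genes that assemble, store or burn fatty acids gave no call in any comparison. In NNK+SECY against Untreated, 1 of 26 assembly and storage genes had an unadjusted p under 0.05 and the list's median was 0.04. Lipe, the hormone-sensitive lipase, was at -0.16 ± 0.07, Chpt1, which makes phosphatidylcholine, at 0.15 ± 0.07, and Gpam, which starts triglyceride synthesis, at 0.11 ± 0.05. Of 28 oxidation genes, 27 were tested, 1 had an unadjusted p under 0.05 and the median was 0.02. Ppara, the receptor that drives fatty acid oxidation, was at 0.24 ± 0.10 (adjusted p = 0.423), Acadvl, a mitochondrial dehydrogenase, at 0.13 ± 0.07, and Cpt1b, the muscle form of the carnitine transferase, at -0.16 ± 0.10. Over all genes, 9.23% had an unadjusted p under 0.05 in that comparison.

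Alveolar type 2 markers, which mark the surfactant-making cells, gave no call, with a median of -0.10 in NNK+SECY against Untreated and 2 of 12 above 0. Of the 12, 4 had an unadjusted p under 0.05 in that comparison, beside 9.23% of all genes. In SECY against Untreated their median was -0.14, with 1 of 12 above 0. Among fibroblast markers Mfap4, a matrix protein, fell by 0.73 in NNK+SECY against Untreated (adjusted p = 0.0473) and by 0.87 against NNK (adjusted p = 0.0126), 1 of 7 called in each. The list's median was -0.26 in both, with 1 of 7 above 0 against Untreated and 2 against NNK, and 4 and 5 of the 7 had an unadjusted p under 0.05. Of all genes, 1.6% and 1.75% were called in these comparisons, and 9.23% and 9.9% had an unadjusted p under 0.05.

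By Pearson's correlation over the same 14 arrays, among 15437 genes with a value on all 16 arrays and a name that is not a clone or an accession, the genes most like Scd1 were Tapt1 (0.86), Afmid (0.83), Tgm1 (0.82), Cd5l, Zfp94, Tes, Cda and Rbm22 (0.81 each). Those most opposed were Tmem217 (-0.86), Cd300ld (-0.84), Cma1 (-0.83) and Fam83a (-0.82). Tapt1 itself rose in NNK+SECY by 0.28 ± 0.05 over Untreated (adjusted p = 0.00547) and by 0.22 ± 0.05 over NNK (adjusted p = 0.015). In the single-channel signals its Cy5 changed by 0.02 and -0.10 and the Cy3 of the constant mix by -0.26 and -0.33, so the difference lay in the Cy3 channel. Among all 20659 genes with such values, whatever their name, the members ranked from 86 (Acly) and 301 (Scd2) to 1716 (Fasn), 4938 (Elovl6) and 13278 (Fads1).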

How the data were processed

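The authors extracted the 2-colour scans using version 8.1.1.1 of Feature Extraction, per the file headers. Deposited scanner files give linear spot and background intensity, and red over green as log10. A deposited value table gives the same ratios as log2, centred on a median of 0.

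Mean spot intensity was corrected with normexp (offset 50) and normalized within arrays by loess, with control and outlier-flagged spots at weight 0 and flagged spots then left out. Spots of a probe were averaged, the brightest probe represented each gene, and a gene was tested if all 4 arrays of some group had it well above background in Cy5. A model with 4 group means was fitted to 16 arrays (limma 3.58.1, R 4.3.3, version 1.17.8 of data.table), with Benjamini-Hochberg adjustment over all genes and a threshold of 0.05. The fits were tested on simulated data with independent noise. The simulation had no missing values and no slide effect, so it does not bear on the flagged Scd1 spots. The number of arrays limits the precision. Single-channel signals were scaled with Aquantile. The interaction is the NNK effect under selenocystine minus that without it. Members and lists were chosen with earlier results of these data known. Named are all members, every called gene of a list, the 3 smallest p-values (NNK+SECY against Untreated) of each of the 5 pathway lists, and the 8 genes most like and 4 least like Scd1. That likeness was planned over 16 arrays and used the 14 with a measured Scd1 spot. Alternatives covered scaling, filters, flags, probes, blocks, weights and single arrays.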

Additional observations from a re-analysis of the deposited data

How the results depend on the processing

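In NNK+SECY against Untreated, Scd1 was called in 10 of 12 planned settings, in 2 of 7 fits that left out a measured spot (0.70 to 0.90) and in neither setting added after the data were seen. It lost its call at 0.73 under median centring (adjusted p = 0.0677), at 0.60 with flagged spots kept, and at 0.60 in both added settings, which keep flagged spots with median pixel signals or with the replicate block. Against NNK it was called in 10 of 12 planned settings and in 6 of 7 fits without a measured spot (0.69 to 1.00). It lost its call at 0.84 with only the arrays compared (adjusted p = 0.0505), at 0.61 with flagged spots kept, and at 0.64 and 0.61 in the added settings. The replicate block alone gave 0.81 and 0.82, and changed no call of a member. Same-numbered arrays deviated together only in part (correlations of -0.12 to 0.50, and 0.21 to 0.50 for those numbered 1). These correlations do not settle whether the numbers pair the mice. Same-numbered arrays on the same diet also share a slide barcode. The count of members called, 1 in each of these comparisons, was 0 wherever Scd1 was lost, apart from the fit without NNK+SECY 3 against NNK, which called Elovl6. From Cy5 alone it was 3 against Untreated and 2 against NNK. Member probes called against Untreated fell to 0 under median centring, and from 0 to 1 were called with an array left out. No member was called in NNK against Untreated, SECY against Untreated, NNK+SECY against SECY or the interaction under any alternative, and no called value changed sign.

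Over all genes the number called was 339 in NNK+SECY against Untreated, with 164 to 3298 over the alternatives, and 371 against NNK, with 279 to 1633. It was 68 in NNK against Untreated (18 to 462), 59 in SECY against Untreated (29 to 4619; 110 with the replicate block), 2 in NNK+SECY against SECY (0 to 29) and 1 in the interaction (0 to 3). The highest counts in the 5 pairs came from Cy5 alone. The share called as higher in NNK+SECY against Untreated was 33.6%, and it was 22.02% under median centring and 62.2% from Cy5 alone. Against NNK it was 17.5%, and 64.4% from Cy5 alone. The causes of these changes were not tested.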
